A study of Homo sapiens with 12 samples.

Results

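Replication-dependent histone genes encode the histones that package newly copied DNA. Their members were taken as all rows whose gene name begins with HIST1H, HIST2H, HIST3H or HIST4H, which gave 72 of the 23713 rows in the expression tables. By the family in their names, 6 members belong to the linker histone H1, 18 to H2A, 20 to H2B, 13 to H3 and 15 to H4. Of these, 3 are annotated as pseudogenes, HIST1H2APS1 of the H2A family and HIST2H2BA and HIST2H2BC of the H2B family. By location, 56 belong to the HIST1 cluster on chromosome 6, 12 to HIST2 and 3 to HIST3 on chromosome 1, and 1, HIST4H4, lies on chromosome 12.

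RNA was measured in KURAMOCHI (Ku) and COV362 (Cov), human ovarian cancer cell lines that carried no transduced construct, after 6 hr in DMSO, the vehicle, or in THZ1, a covalent inhibitor of the transcriptional kinases CDK7, CDK12 and CDK13. THZ1 was given at 50 nM or 250 nM, and each of the 6 groups, Ku DMSO, Ku 50 nM, Ku 250 nM, Cov DMSO, Cov 50 nM and Cov 250 nM, held 2 libraries prepared as biological duplicates. Ku cells were grown in RPMI medium and Cov cells in DMEM, both with fetal bovine serum. Polyadenylated RNA was sequenced with spike-in RNAs added per cell count, so that levels are on a scale of RNA per cell.

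Histone messenger RNAs of this class are made mainly during S phase, when cells need histones for the copied DNA. Unlike other messenger RNAs they usually end not in a poly(A) tail but in a conserved stem-loop, which is bound by SLBP and is cut free with the help of the U7 small nuclear ribonucleoprotein. A library that selects poly(A) RNA is therefore expected to miss many of these transcripts and to favour those that carry a tail, and how much of each level below comes from tailed transcripts was not tested.

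The stem-loop was read from the GRCh37 genome, the equivalent of the hg19 build to which the reads were aligned. Of the 72 members, 69 were found in the GENCODE annotation lifted to GRCh37, and 63 of the 66 with an annotated stop codon carried a 6-base stem with a 4-base loop within 150 bases after it, beginning 22 to 67 bases past the stop codon. The 16-base element took 7 forms, the commonest of which was shared by 38 members. The elements of members on which the results turn are shown with 5 bases on either side and with the stem and loop in capitals, and they differ by few letters.
HIST1H2BK, chr6:27114140-27114165, minus strand: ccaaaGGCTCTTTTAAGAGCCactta
HIST1H1C, chr6:26055967-26055992, minus strand: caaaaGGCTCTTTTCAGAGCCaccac
HIST1H2BD, chr6:26158810-26158835, plus strand: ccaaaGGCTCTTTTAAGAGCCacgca
HIST2H2AA3, chr1:149813785-149813810, minus strand: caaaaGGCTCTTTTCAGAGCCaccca
HIST1H4C, chr6:26104540-26104565, plus strand: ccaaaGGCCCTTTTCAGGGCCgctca
HIST2H4B, chr1:149832330-149832355, minus strand: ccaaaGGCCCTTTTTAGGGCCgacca
In 4 members, HIST1H1C, HIST1H2BD, HIST2H2AA3 and HIST2H2AA4, the letters AATAAA, the usual signal for polyadenylation, began 12 or 13 bases after the stem-loop. All 4 were among the 10 members with the highest levels, although HIST2H2AA3 and HIST2H2AA4 are near-identical copies. AATAAA was found within 1000 bases after the stem-loop in 32 of the 63 members, 7 of them among those 10. HIST1H2BK, the highest member, HIST2H2AC and HIST1H4H had none there. Whether the annotation used here is the one the FPKM were computed on was not tested, and HIST1H2BF, HIST1H2BG and HIST1H4F were not found in it. No stem-loop of the form searched for was found for HIST1H2BI, HIST1H3E and HIST1H4L.

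A level here is in FPKM, the fragments per kilobase of transcript scaled for sequencing depth, which the authors normalized to the spike-ins. A gene was called active when it was above 1 FPKM in at least 1 of the 12 libraries. By this measure 42 of the 72 members were active, 36 of them in Ku cells and 39 in Cov cells, with 33 active in both lines, 3 in Ku cells alone and 6 in Cov cells alone. Between 25 and 31 members were above 1 FPKM in a Ku library and between 31 and 36 in a Cov library, and 18 members were above 1 in all 12. Only 6 members exceeded 10 FPKM in all 12 libraries, HIST1H2BK, HIST2H2AA3, HIST2H2AA4, HIST1H1C, HIST1H2AC and HIST2H2AC, and 17 did so in at least 1. Of the 42, 8 were above 1 in no more than 3 libraries, and 5 passed through DMSO or treated libraries alone (HIST1H2BL, HIST1H3D and HIST1H4E through DMSO, HIST1H3B and HIST1H4D through THZ1).

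The other 30 members never reached 1 FPKM. The tables hold no zeros, and a shared low value, from 0.0783 to 0.119 FPKM by library, takes their place. Within 15% of it in all 12 libraries were 6 members. The testis-expressed members HIST1H1T, HIST1H2AA, HIST1H2BA and HIST3H3 were 0 of 4 active. By family, 1 of 6 H1 genes, 11 of 18 H2A genes, 14 of 20 H2B genes, 7 of 13 H3 genes and 9 of 15 H4 genes were active. By cluster, 30 of 56 HIST1 genes, 11 of 12 HIST2 genes, 1 of 3 HIST3 genes and 0 of 1 HIST4 genes were active.

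The members were expressed at very unequal levels. HIST1H2BK, an H2B gene also named H2BC12 at chr6:27114140-27114634, alone made up 26% to 37.9% of the summed FPKM of all 72 members in the 12 libraries, and the 5 highest members together made up 59.5% to 69.5%. H2B and H2A genes carried most of the sum. In the DMSO libraries of Ku cells the H2B genes summed to 246 and 212 FPKM, the H2A genes to 148 and 137, the H4 genes to 59.0 and 60.3, the H1 genes to 37.6 and 31.8 and the H3 genes to 8.87 and 9.7. The order was the same in Cov DMSO libraries, with 374 and 408 FPKM for H2B, 208 and 227 for H2A, 107 and 117 for H4, 66.1 and 68.5 for H1 and 10.8 and 15.6 for H3.

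**Figure D1:**
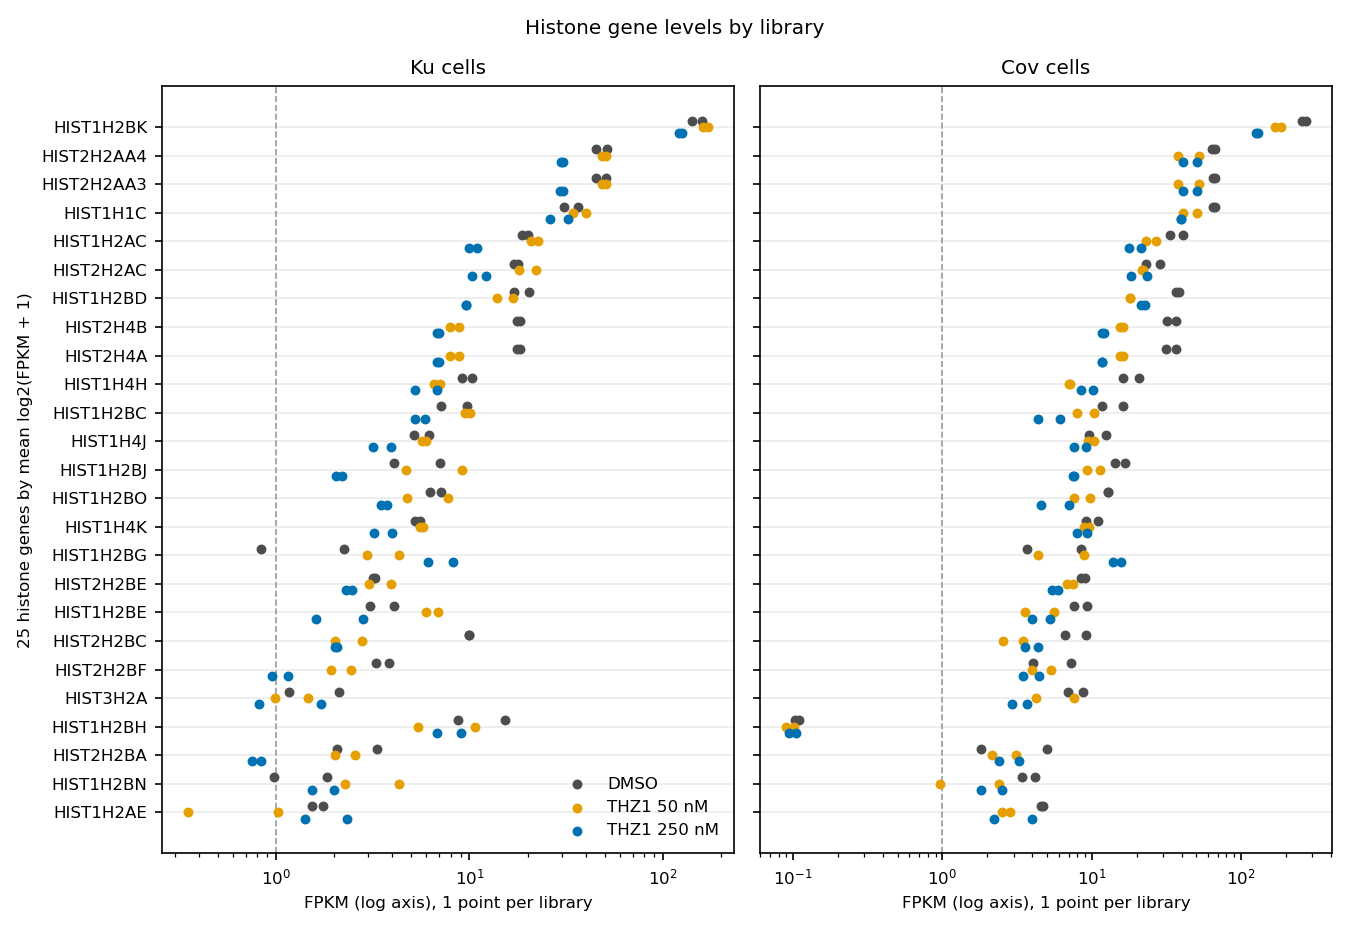
FPKM on a log axis of the 25 members with the highest mean log2(FPKM + 1), 1 point for each of the 12 libraries, in Ku cells (left) and Cov cells (right); the dashed line marks 1 FPKM. HIST1H2BK lies above 100 FPKM in every library, HIST1H2BH is at the shared low value in Cov cells, and HIST1H2BG is the gene of the 25 whose 250 nM points lie right of its DMSO points in both lines.

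The next question was how much histone RNA remained after THZ1. In Ku cells the 72 members summed to 499.1 and 451.2 FPKM in DMSO, to 483.5 and 453.8 at 50 nM and to 331.0 and 323.6 at 250 nM. The 50 nM libraries lay within the DMSO range and both 250 nM libraries lay below it. The means of 475 ± 33.9, 469 ± 21 and 327 ± 5.23 (SD, n = 2 each) put the sum at 98.7% and 68.8% of DMSO. The summed FPKM of all genes was at 81.2% and 51.6% and the median active gene at 60.7% and 25%. In Cov cells the members summed to 765.4 and 836.6 FPKM in DMSO, to 510.0 and 554.8 at 50 nM and to 454.5 and 483.6 at 250 nM, so that every treated library lay below both DMSO libraries. Their means of 801 ± 50.3, 532 ± 31.7 and 469 ± 20.6 were 66.4% and 58.6% of DMSO, beside 71.2% and 48.2% for the sum of all genes and 42.8% and 23.7% for the median active gene. Set against the sum of all genes rather than the median gene, the members' percent was the higher in Ku cells at both doses and in Cov cells at 250 nM, and at 50 nM in Cov cells the libraries of the 2 sums overlapped; these percents were not tested against each other.

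The members were also set against the FPKM of all genes. The Ku share went from 0.0386% ± 0.00262 (SD, n = 2) with DMSO to 0.0469% ± 0.000566 with 50 nM and 0.0516% ± 0.0024 with 250 nM. The Cov share was 0.0508% ± 0.0017, 0.0474% ± 0.00148 and 0.0616% ± 0.0024. Since groups hold 2 libraries each, no exact two-sided permutation p could be below 0.33, and these sums carry no test. In bulk RNA, fewer cells that make histone RNA, such as cells in S phase, and less of it per cell cannot be told apart.

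**Figure D2:**
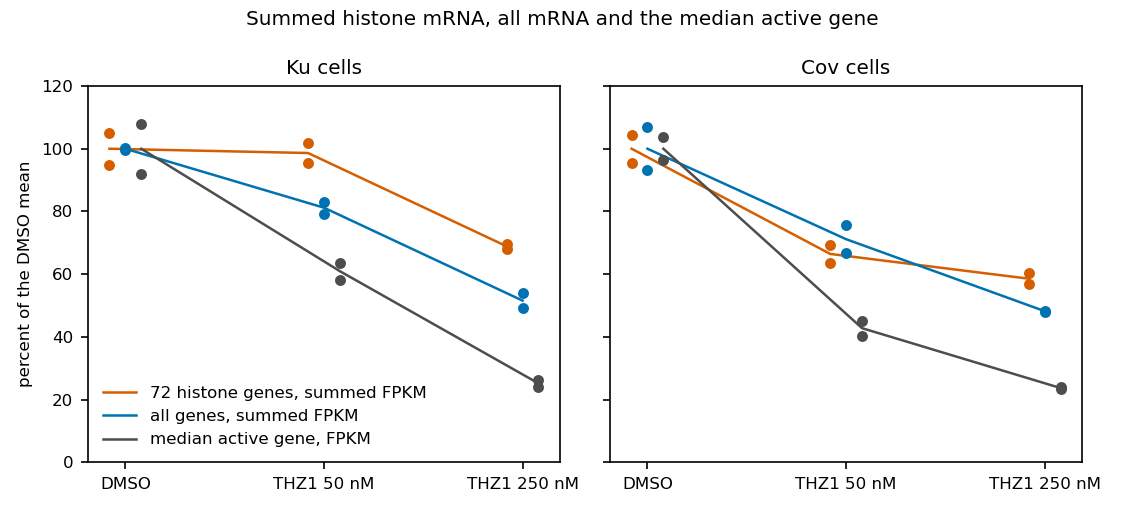
Summed FPKM of the 72 members (orange), summed FPKM of all genes (blue) and FPKM of the median active gene (grey) as percent of their DMSO means, for Ku cells (left) and Cov cells (right); points are single libraries and lines join the means of 2. At 250 nM the summed histone RNA is at 68.8% (Ku) and 58.6% (Cov), the sum of all genes at 51.6% and 48.2% and the median active gene at 25% and 23.7%.

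Each gene was then compared between THZ1 and DMSO within its line. A log2 fold change is the treated minus the DMSO mean of log2(FPKM + 1), which understates the change of low genes, and was tested with limma with Benjamini-Hochberg adjustment over 14251 active genes. Calls required adjusted p-values below 0.001 together with changes larger than 0.5 on the log2 scale. In Ku cells at 50 nM, 5 of the 42 active members (11.9%) were called lower, against 11.3% of all genes tested. None of these 5 calls was kept in any fit that left out 1 of the 6 Ku libraries, and over all active genes the 1607 lower calls went to between 6 and 131. Their log2 fold changes moved less, from -1.77 to -1.69 for HIST1H3E, from -1.86 to -1.53 for HIST2H2BC and from -1.08 to -0.94 for HIST2H4B. At 250 nM 10 members (23.8%) were called lower, against 68.6% of all genes tested. In Cov cells 6 members (14.3%) were called lower at 50 nM, against 70.5%, and 9 (21.4%) at 250 nM, against 84%. With 1 library left out these counts ranged from 4 to 8 in Ku cells at 250 nM, with 4 in the absence of either 250 nM library and 6 in that of DMSO replicate 2. They ranged from 3 (no DMSO replicate 2) to 10 (no 50 nM replicate 2) in Cov cells at 50 nM, and at 250 nM from 5, without DMSO replicate 2 or 250 nM replicate 1, to 15, without either 50 nM library. Over all active genes lower calls ranged from 6085 to 9044, from 4314 to 9929 and from 10451 to 12341 in these fits.

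Calls in the other direction were rare among the members, as they were among all genes. In Ku cells at 250 nM 1 member, HIST1H4C, was called higher, against 0.0491% of all genes. No member was called higher by limma in Ku cells at 50 nM (0.0842% of all genes), in Cov cells at 50 nM (0.0772%) or in Cov cells at 250 nM (0.105%). At an unadjusted p under 0.05, 7, 0 and 4 members were higher in those comparisons (16.7%, 0% and 9.52%), beside 1.46%, 0.4% and 0.309% of all active genes. Of the 4 in Cov cells at 250 nM, HIST1H3B and HIST1H4D had passed 1 FPKM through THZ1 libraries alone, so that the filter itself favoured them. HIST1H3B was also among the 7 in Ku cells at 50 nM. HIST1H3D, another of the 7, was below 1 FPKM in every Ku library. HIST1H3H and HIST1H4C, also of the 7, were below 1 FPKM in both Ku DMSO libraries.

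The median log2 fold change of the active members was -0.01 in Ku cells at 50 nM, beside -0.40 for all active genes, and -0.35 beside -1.11 at 250 nM. In Cov cells it was -0.38 beside -0.85 at 50 nM and -0.49 beside -1.31 at 250 nM. Of the 42 members, 11, 5, 6 and 2 lay below the median of all active genes in these 4 comparisons. In Ku cells 20 members had a higher mean at 50 nM than in DMSO (47.6%, against 9.76% of active genes) and 8 at 250 nM (19%, against 1.4%), and in Cov cells 7 (16.7%, against 1.97%) and 8 (19%, against 1.75%) did. These include HIST1H3B in both lines and HIST1H4D in Cov cells, at both doses, which the filter favoured because they passed it through THZ1 libraries alone. In Ku cells they also include HIST1H2BL at both doses, HIST1H3D at 50 nM and HIST1H2AM at 250 nM. Those were below 1 FPKM in every Ku library. The plot of cumulative log2 fold changes shows the members to the right of all active genes over most of the range.

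**Figure D3:**
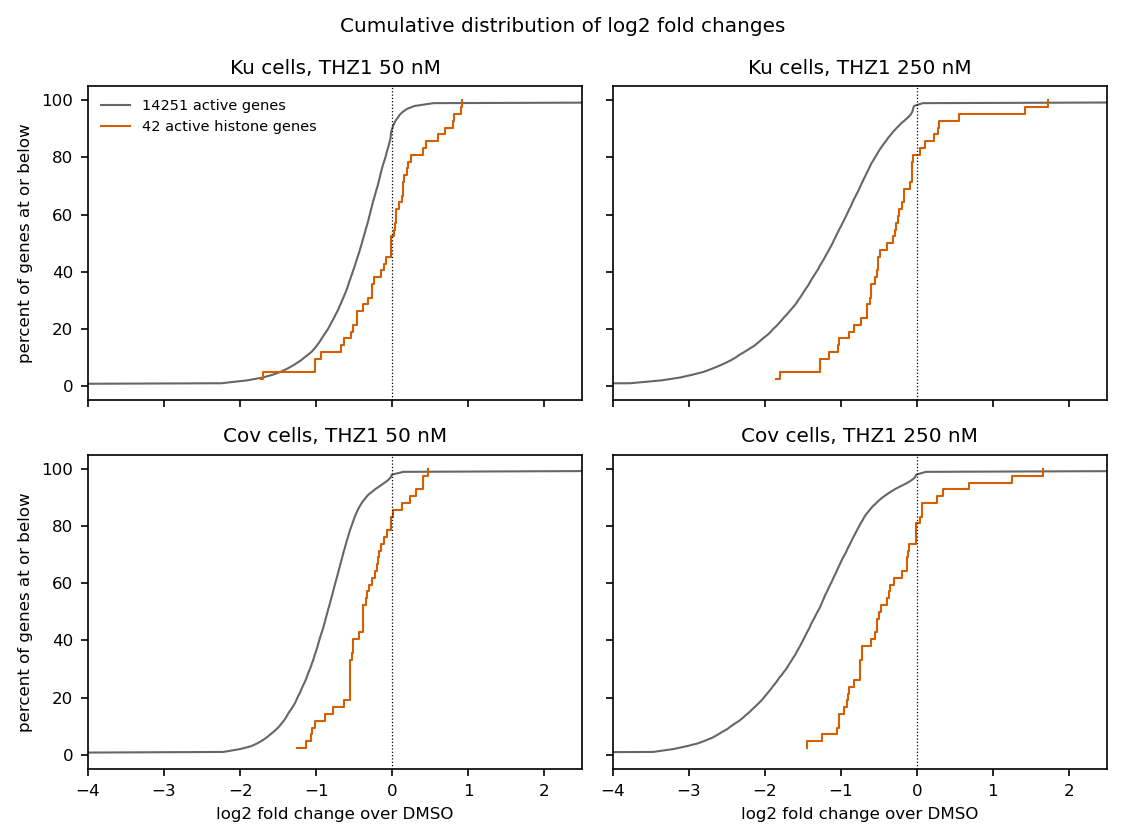
Percent of genes at or below each log2 fold change over DMSO, for all active genes (grey) and the 42 active histone members (orange), in 4 panels by line and dose. At 250 nM the members' median is -0.35 in Ku cells and -0.49 in Cov cells, beside -1.11 and -1.31 for all active genes.

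Low members widen and compress these distributions, since the pseudocount of 1 draws their fold changes towards 0. The comparison was therefore also made among genes above 10 FPKM in DMSO, on the DMSO mean of each line. In Ku cells 10 members passed that level, and 6 of them (60.0%) were called lower at 250 nM, beside 85.2% of 7726 genes, with a median log2 fold change of -0.66 beside -1.33. In Cov cells 15 members passed, and 9 (60.0%) were called lower at 250 nM, beside 96.6% of 8265 genes, with a median of -0.89 beside -1.53. At 50 nM 2 of the 10 (20%) were called lower in Ku cells, beside 13.4% of all genes above that level, with a median of 0.04 beside -0.43. The 2 were the near-identical HIST2H4A and HIST2H4B, whose calls were lost whichever Ku library was left out. In Cov cells 5 of the 15 (33.3%) were, beside 81.8%, with a median of -0.55 beside -0.93.

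The 2 doses did not act as steps for every member. Among the members above 1 FPKM in the line itself, the mean fell both from DMSO to 50 nM and from 50 nM to 250 nM in 12 of 36 in Ku cells (33.3%) and in 20 of 39 in Cov cells (51.3%), where 87% and 89% of all genes above 1 FPKM in that line did so. It rose at both steps in 2 members in Ku cells (5.56%) and 4 in Cov cells (10.3%), beside 0.162% and 0.216% of those genes. HIST1H4C in Ku cells and HIST1H3B and HIST1H4D in Cov cells, 3 of these 6 cases, were above 1 FPKM in treated libraries of that line alone, so the filter itself favoured them. Replicates of the members also differed more than those of active genes in general in 5 of the 6 groups, Ku DMSO being the exception (0.17 and 0.171). The median absolute difference between the 2 libraries of a group was 0.157 to 0.279 log2 units over the members, beside 0.09 to 0.171 over all active genes, by group. Members and active genes were not matched by level, and the part of low levels in this difference was not tested.

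Of the 6 members that encode H1, HIST1H1C, the gene of histone H1.2, was the only active one. In Ku cells its FPKM was 36.4 and 30.8 in DMSO, 39.9 and 34.4 at 50 nM and 32.5 and 26 at 250 nM, so that each treated group overlapped DMSO. Its log2 fold changes there were 0.14 ± 0.143 (SE) at 50 nM and -0.20 ± 0.143 at 250 nM, with limma adjusted p = 0.435 and 0.224. In Cov cells the log2 fold change of HIST1H1C at 50 nM was -0.52 ± 0.111, which was not called (limma adjusted p = 0.00296). With 1 library left out that change ranged from -0.67 to -0.37. The gene was at 65.1 and 67.1 FPKM in Cov DMSO, 41.0 and 51.0 at 50 nM and 39.5 and 39.8 at 250 nM. It fell by 0.72 ± 0.111 on the log2 scale at 250 nM (limma adjusted p = 0.000454), a call that was lost without either Cov DMSO library or either Cov 250 nM library (highest adjusted p = 0.00377).

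H2A genes were led by the HIST2H2AA3 and HIST2H2AA4 pair on chromosome 1, which share much of their sequence. Of the 75-base windows of HIST2H2AA4, 100% were also found in another member, and 51.1% of those of HIST2H2AA3, so the level of either row is uncertain, and each counts as a member. HIST2H2AA4 had 51.2 and 45.3 FPKM in Ku DMSO, 50.7 and 48.6 at 50 nM and 30.5 and 29.6 at 250 nM, and HIST2H2AA3 was nearly equal to it in each of these libraries. Both 250 nM libraries were lowest, and the log2 fold change of HIST2H2AA4 was -0.66 ± 0.08 (limma adjusted p = 0.000319). That call was lost without Ku DMSO replicate 1 (adjusted p = 0.0012) or without either 250 nM library (highest adjusted p = 0.00341). In Cov cells HIST2H2AA4 went from 64.5 and 67.0 FPKM in DMSO to 38.0 and 52.0 at 50 nM and to 41.1 and 50.9 at 250 nM. All treated libraries were below DMSO, but neither change passed the threshold (log2 fold changes -0.55 and -0.52, limma adjusted p = 0.0135 and 0.0181). Without Cov 50 nM replicate 2 the 50 nM change was called, at -0.78 with adjusted p = 0.000978.

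HIST1H2AC fell in both lines at 250 nM. Its FPKM in Ku cells was 18.7 and 20 in DMSO, 22.6 and 20.8 at 50 nM and 10.0 and 11 at 250 nM, so it was above DMSO at the low dose and below it at the high dose. In Cov cells it was 33.5 and 41.1, then 27.0 and 23.1, then 17.9 and 21.3. The log2 fold changes at 250 nM were -0.82 ± 0.0953 (Ku) and -0.89 ± 0.139 (Cov), both called (limma adjusted p = 0.000272 and 0.000483). The Ku call was lost without either DMSO or either 250 nM library (highest adjusted p = 0.00329), and the Cov call without Cov DMSO replicate 2 (0.00371) or Cov 250 nM replicate 1 (0.00242).

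Other H2A genes were not called. At 250 nM the log2 fold change of HIST2H2AC was -0.60 (Ku) and -0.30 (Cov), and HIST3H2A -0.23 and -1.03. HIST1H2AE was at 1.53 and 1.74 FPKM in Ku DMSO and at 1.41 and 2.34 at 250 nM, which overlapped. For Cov cells, it was at 4.55 and 4.75 in DMSO and at 2.2 and 3.97 at 250 nM, below DMSO with a log2 fold change of -0.50 (limma adjusted p = 0.0423), which was called without Cov 250 nM replicate 2 (-0.82, 0.000821). HIST3H2A in Cov cells was called at 250 nM without Cov 50 nM replicate 1 (adjusted p = 6.89e-05) or replicate 2 (7.1e-05).

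H2B genes held the highest member. HIST1H2BK was at 159 and 142 FPKM in Ku DMSO, 172 and 161 at 50 nM and 125 and 121 at 250 nM. It lay above DMSO at 50 nM and below it at 250 nM, with log2 fold changes of 0.14 ± 0.0764 and -0.29 ± 0.0764 that did not pass the threshold (limma adjusted p = 0.156 and 0.0115). In Cov cells it went from 255 and 273 to 170 and 186 and then to 131 and 126. The log2 fold changes of -0.56 ± 0.0871 and -1.03 ± 0.0871 were both called (limma adjusted p = 0.00058 and 1.59e-05). The 250 nM call was kept without any 1 of the 6 Cov libraries, while the 50 nM call was lost without each of them (adjusted p up to 0.00619).

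HIST1H2BD and HIST1H2BC are H2B genes whose annotated models run on past the stem-loop. HIST1H2BD was at 20.3 and 17 FPKM in Ku DMSO, 13.9 and 16.8 at 50 nM and 9.56 and 9.61 at 250 nM, and at 36.9 and 38.5, 18.2 and 18, and 22.6 and 21.3 in Cov cells. Both treated groups lay below DMSO in both lines. It was called lower in Cov cells at 50 nM (-1.02 ± 0.0815, limma adjusted p = 3.75e-05) and 250 nM (-0.75 ± 0.0815, 6.08e-05), and these calls were kept without any 1 Cov library. In Ku cells it was called at 250 nM (-0.89 ± 0.131, 0.000823), a call that was lost without each of the 6 Ku libraries (adjusted p up to 0.00641). HIST1H2BC was called lower in Cov cells at 250 nM, where it went from 11.7 and 16.2 to 4.38 and 6.16 FPKM (-1.25 ± 0.207, limma adjusted p = 0.000678), except without Cov DMSO replicate 2 (0.00521) or Cov 250 nM replicate 1 (0.00265).

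HIST2H2BC, annotated as a pseudogene of the H2B family at chr1:149821760-149822339, had one of the largest falls. In Ku cells it was at 9.97 and 9.96 FPKM in DMSO, 2.79 and 2.03 at 50 nM and 2.03 and 2.07 at 250 nM, so that almost all of the fall was reached at the low dose. Its log2 fold changes were -1.70 ± 0.149 and -1.85 ± 0.149 (limma adjusted p = 0.000531 and 5.74e-05). The 250 nM call was kept without any 1 Ku library, and the 50 nM call was lost without each of them (adjusted p up to 0.00395). For Cov cells, it went from 6.58 and 9.1 FPKM to 2.56 and 3.45 at 50 nM, which was called (-1.14 ± 0.18, limma adjusted p = 0.000659), and to 4.35 and 3.55 at 250 nM, which was not (-0.83 ± 0.18, 0.00301). The 50 nM call was lost without Cov DMSO replicate 2 (0.0048) or Cov 50 nM replicate 1 (0.00105), and the 250 nM change was called without Cov 50 nM replicate 1 (0.000571) or replicate 2 (0.000573).

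HIST2H2BF fell in Ku cells from 3.27 and 3.85 FPKM to 1.15 and 0.948 at 250 nM (-1.15 ± 0.138, limma adjusted p = 0.000306), a call lost without either DMSO or either 250 nM library (highest adjusted p = 0.00325). HIST1H2BJ fell in Cov cells from 16.6 and 14.4 to 7.46 and 7.56 (-0.96 ± 0.121, limma adjusted p = 0.000147), except without Cov DMSO replicate 1 (0.00172). HIST1H2BO missed the threshold in Cov cells at 250 nM at an adjusted p of 0.00105, with 12.9 and 12.8 FPKM in DMSO and 4.61 and 7.03 at 250 nM, and was called without Cov 50 nM replicate 1 (0.000162) or replicate 2 (0.000163) or Cov 250 nM replicate 2 (0.000172). HIST1H2BH was a gene of 1 line. It was at 15.3 and 8.71 FPKM in Ku DMSO and at the shared low value, 0.102 and 0.11, in Cov DMSO.

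HIST1H2BG moved the other way. Its FPKM in Ku cells was 2.26 and 0.837 in DMSO, 2.96 and 4.33 at 50 nM and 6.14 and 8.27 at 250 nM, and every treated library lay above both DMSO libraries. In Cov cells it was 3.66 and 8.46 in DMSO, 4.36 and 8.91 at 50 nM and 14 and 15.7 at 250 nM, so that the 50 nM group overlapped DMSO and the 250 nM group lay above it. The log2 fold changes at 250 nM were 1.73 ± 0.314 and 1.25 ± 0.379, 3.33-fold and 2.38-fold on the FPKM + 1 scale, and did not pass the threshold of 0.001 (limma adjusted p = 0.00211 and 0.0147). Of all active genes, 99.8% had a lower log2 fold change in Ku cells and 99.7% in Cov cells. Its place on GRCh37 is not given, because the annotation used here did not hold it.

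HIST1H2BN and HIST1H2BE lay above DMSO in Ku cells at 50 nM and below it in Cov cells. HIST1H2BE was at 4.08 and 3.05 FPKM in Ku DMSO and at 5.97 and 6.85 at 50 nM, and at 9.26 and 7.65 in Cov DMSO and 3.55 and 5.63 at 50 nM. The log2 fold changes of 0.70 and -0.78 did not pass the threshold (limma adjusted p = 0.0384 and 0.00824), although without Cov 50 nM replicate 2 the Cov change was called (-1.05, 0.000393). Those of HIST1H2BN were 0.81 and -0.88 (0.0487 and 0.012), and its Cov change too was called without Cov 50 nM replicate 2 (-1.28, 8.29e-05).

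H3 genes of this class were low in both lines, at no more than 4.06 FPKM in any library. HIST1H3E was at 3.56 and 3.61 FPKM in Ku DMSO, 0.426 and 0.346 at 50 nM and 0.229 and 0.41 at 250 nM, and both treated groups lay far below DMSO. The log2 fold changes were -1.73 ± 0.0925 and -1.80 ± 0.0925 (limma adjusted p = 0.000223 and 1.43e-05). The 250 nM call was kept without any 1 Ku library, and the 50 nM call was lost without each (adjusted p up to 0.0024). For Cov cells, it went from 1.18 and 3.53 FPKM to 0.549 and 0.778 at 250 nM, which was not called (-0.92, limma adjusted p = 0.0253) but was without Cov DMSO replicate 1 (-1.45, 0.00031). HIST1H3E had 2 annotated transcripts and no stem-loop of the form searched for within 150 bases of its stop codon.

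HIST1H3H in Ku cells and HIST1H3B in Cov cells lay above DMSO at 250 nM without a call. HIST1H3H was at 0.147 and 0.442 FPKM in Ku DMSO and at 0.716 and 1.08 at 250 nM (0.56, limma adjusted p = 0.0717), and at 2.73 and 4.06 and then 2.23 and 2.58 in Cov cells (-0.35, 0.28). HIST1H3B had a log2 fold change of 0.04 in Ku cells, where the groups overlapped, and was at 0.14 and 0.863 in Cov DMSO and at 1.05 and 1.66 at 250 nM (0.68, limma adjusted p = 0.0228), which was called without Cov DMSO replicate 2 (1.03, 0.000978). HIST2H3A, named here after its values were seen, was the other H3 gene called lower in Ku cells, at 1.43 and 1.74 FPKM in DMSO, 0.388 and 0.317 at 50 nM and 0.751 and 0.652 at 250 nM. Its log2 fold changes were -0.93 and -0.60 (limma adjusted p = 0.000598 and 0.000691). The 50 nM call was lost without each Ku library (adjusted p up to 0.005), and the 250 nM call was kept only without Ku DMSO replicate 1 (adjusted p up to 0.00565 without any other).

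H4 genes held both a pair of copies that fell in all 4 comparisons and the member called higher. HIST2H4A and HIST2H4B are copies on chromosome 1 with identical 250 bases upstream and near-equal values, and how reads were divided between them was not tested; each row counts as a member in the counts given here. HIST2H4B was at 17.6 and 18.3 FPKM in Ku DMSO, 8.85 and 7.97 at 50 nM and 6.99 and 6.76 at 250 nM, and at 31.9 and 36.7, 16.2 and 15.5, and 11.8 and 12.1 in Cov cells. The 3 groups did not overlap in either line. The log2 fold changes were -1.01 ± 0.103 and -1.27 ± 0.103 in Ku cells and -1.07 ± 0.0966 and -1.45 ± 0.0966 in Cov cells, all called (limma adjusted p = 0.000776, 5.89e-05, 5.67e-05 and 5.13e-06). These calls were kept without any 1 library, except that at 50 nM in Ku cells each library left out took the call away (adjusted p up to 0.00727). HIST2H4A, HIST2H4B and HIST2H2BC were the 3 members called lower in both lines at 50 nM, 60% of the members called in Ku cells and 50% of those in Cov cells, beside 92.5% and 14.8% of the calls over all active genes. At 250 nM HIST1H2AC, HIST1H2BD, HIST2H4A and HIST2H4B were shared, 40% and 44.4%, beside 94.2% and 76.9% over all active genes.

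HIST1H4H fell in Cov cells, from 16.2 and 20.6 FPKM to 7.01 and 7.19 at 50 nM and 8.44 and 10.2 at 250 nM (-1.25 ± 0.14 and -0.90 ± 0.14, limma adjusted p = 0.000133 and 0.000474). Without Cov DMSO replicate 2 both calls were lost (0.00119 and 0.00354), and the second also without Cov 250 nM replicate 1 (0.00268). In Ku cells it was at 9.17 and 10.3, 7.05 and 6.56, and 6.76 and 5.23, below DMSO at both doses but not called (limma adjusted p = 0.0409 and 0.00731). HIST1H4J and HIST1H4K share 91.4% and 92.0% of their 75-base windows with each other or another member, and stood at -0.55 and -0.48 (Ku) and -0.36 and -0.20 (Cov) on the log2 scale at 250 nM, none of them called.

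HIST1H4C, at chr6:26104161-26104565, was the member called higher. It was at 0.702 and 0.592 FPKM in Ku DMSO, 1.98 and 2.27 at 50 nM and 3.52 and 3.32 at 250 nM, and the 3 groups did not overlap. The log2 fold change was 0.92 ± 0.106 at 50 nM, which just missed the threshold (limma adjusted p = 0.00112), and 1.42 ± 0.106 at 250 nM (4.26e-05), and the 250 nM call was kept without any 1 Ku library. In Cov cells it was at 0.144 and 1.19 in DMSO, 3.32 and 0.107 at 50 nM and 4.05 and 3.97 at 250 nM. The 50 nM libraries disagreed, both 250 nM libraries lay above DMSO, and the log2 fold change of 1.66 ± 0.593 was not called (limma adjusted p = 0.0294), but was without Cov 50 nM replicate 1 (0.000109) or replicate 2 (0.000119).

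**Figure D4:**
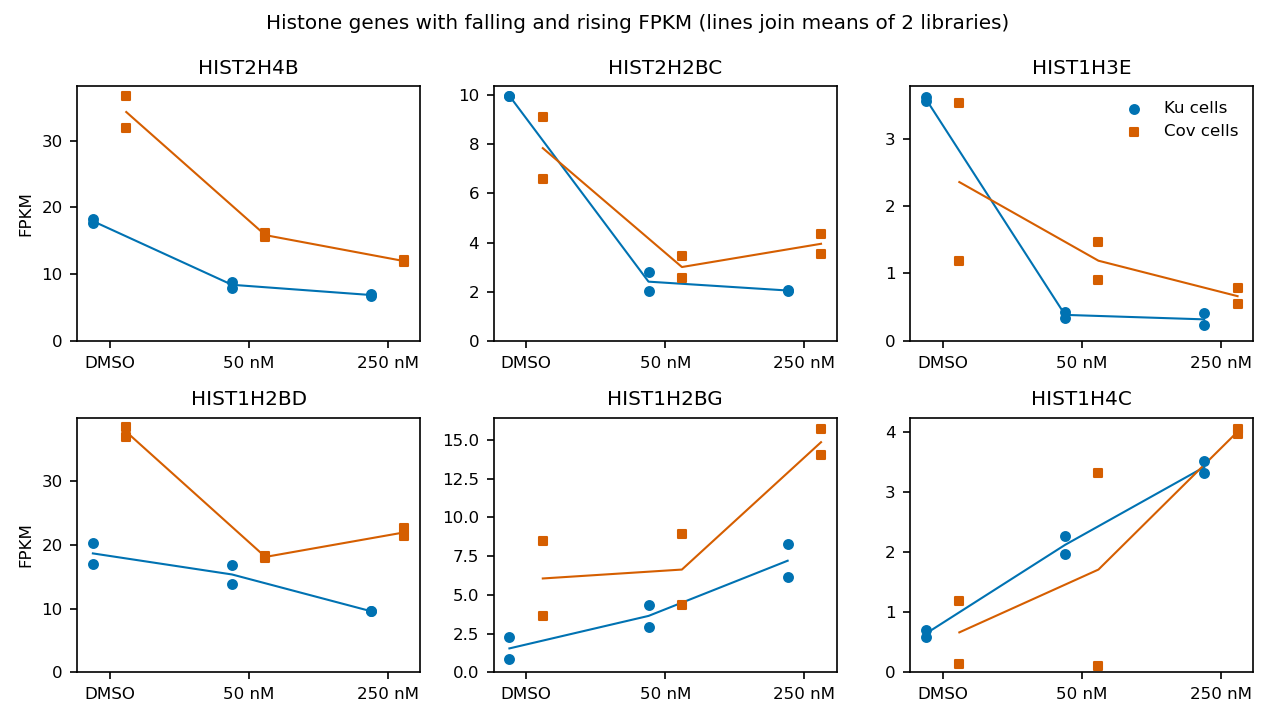
FPKM of 6 members, chosen after their values were seen, by dose in Ku cells (circles) and Cov cells (squares), with lines joining the means of 2 libraries. HIST2H4B, HIST2H2BC, HIST1H3E and HIST1H2BD have lower means at both doses in both lines, while HIST1H2BG and HIST1H4C are highest at 250 nM.

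**Figure D5:**
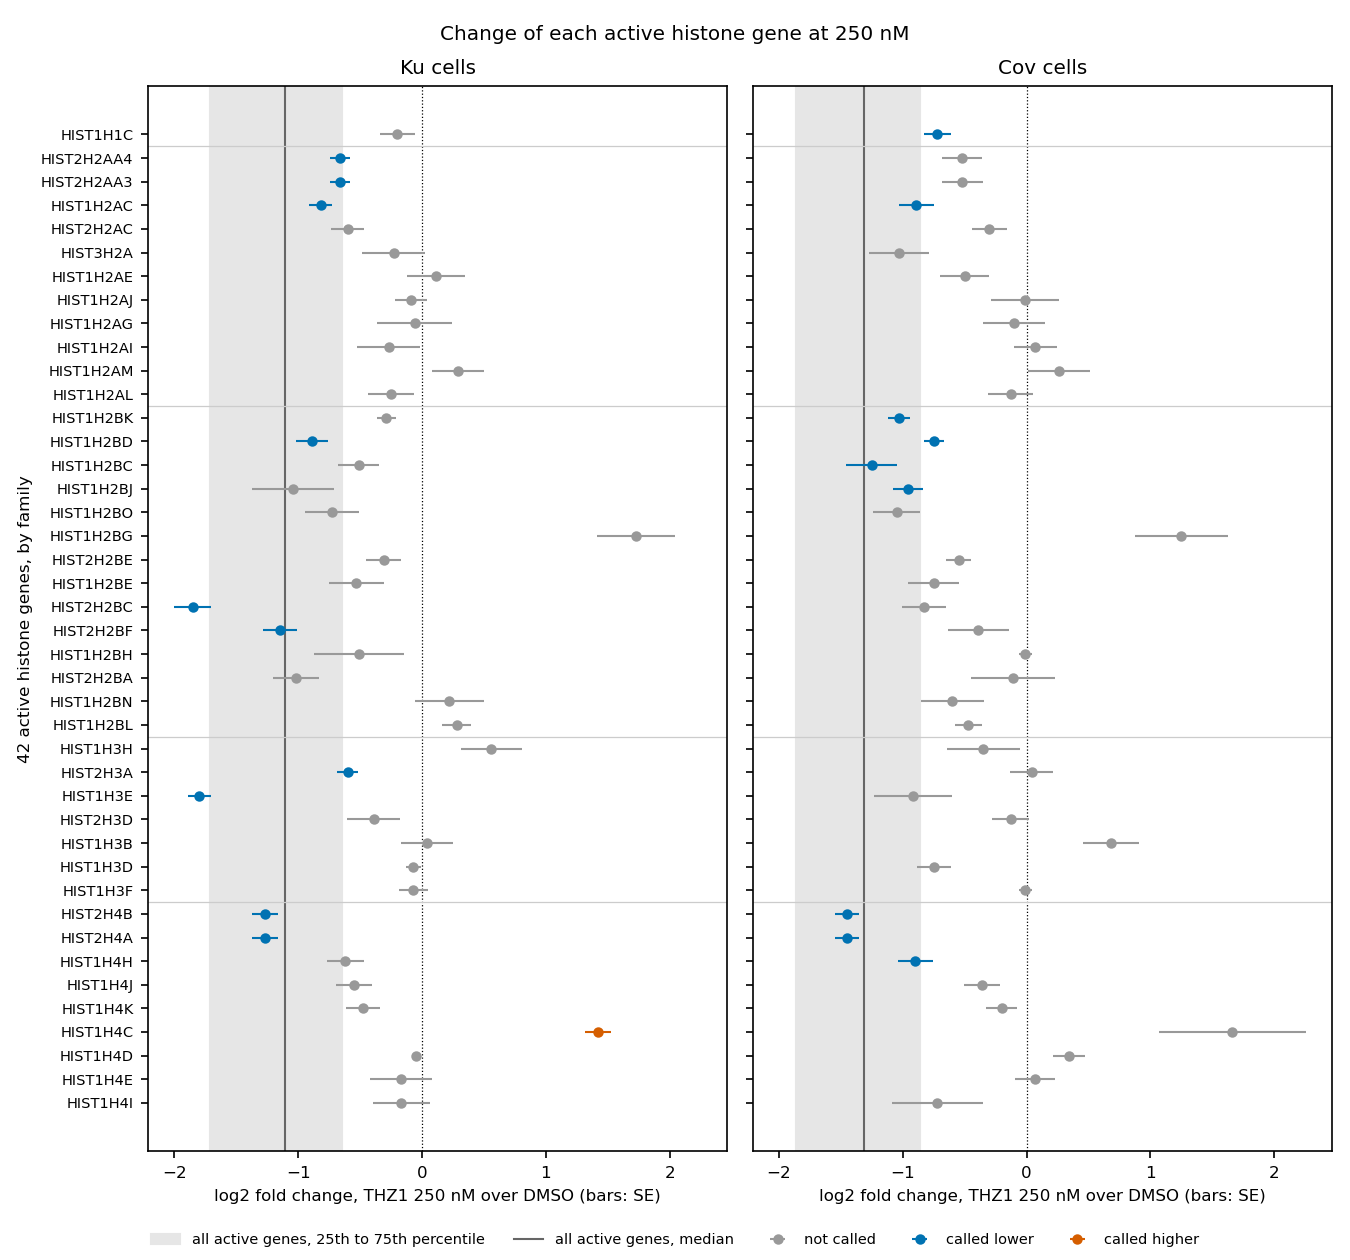
Log2 fold change at 250 nM over DMSO with its SE for each of the 42 active members, grouped by family from H1 at the top to H4 at the bottom, in Ku cells (left) and Cov cells (right). The grey band spans the 25th to 75th percentile of all active genes, -1.71 to -0.65 in Ku cells and -1.86 to -0.86 in Cov cells, and most members lie to its right.

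The scale of the libraries moved most of these directions, though not those of HIST1H2BG and HIST1H4C, which were higher at 250 nM in both lines on each scale, or of HIST1H3E and HIST2H2BC in Ku cells, which were lower. When each library was instead rescaled so that active genes had equal medians in all libraries, which moved the median log2 fold change of all active genes from -1.11 to 0.28 in Ku cells and from -1.31 to 0.31 in Cov cells at 250 nM, 11 Ku members (26.2%) and 16 Cov members (38.1%) were called higher at that dose and 0 lower, beside 26.9% and 26.4% of all active genes called higher and 11.6% and 11.3% lower. With median-of-ratios scaling, which brought those medians to -0.001 and 0.011, 6 members (14.3%) were called higher in each line, and 1 lower in Ku alone, beside 11.1% and 8.57% of all active genes called higher and 19% and 18.9% lower. HIST1H1C and HIST1H2BK were called higher at 250 nM in both lines on both of these scales. HIST1H3E in Ku cells was the member called lower, at -1.07.

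Members were also split by the annotated extent of the gene, a split made after the values were seen and given without a test. Of the 17 members whose annotated gene ran more than 100 bases past the stem-loop, 14 were active, and of the 46 whose gene ended nearer to it, 24 were. At 250 nM the active members with long models had a median log2 fold change of -0.64 (Ku) and -0.82 (Cov), and 6 and 7 were called lower. Those with short models had medians of -0.18 and -0.13, with 2 called lower in each line. The near-identical HIST2H2AA3 (285 bases past the stem-loop) and HIST2H2AA4 (5 bases) fell on opposite sides of this split, and HIST2H2AA4 was 1 of the 2 in Ku cells. Of all active genes, 68.6% and 84% were called lower there. At 50 nM the medians of long and short models were 0.07 and -0.01 in Ku cells, the other order, and -0.56 and -0.20 in Cov cells. Levels differed too, with a median DMSO mean of 7.0 FPKM for long and 1.17 FPKM for short models in Ku cells and of 14.8 and 1.71 FPKM in Cov cells, and the part of the level in the difference was not tested.

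Promoters of the members are shown for the gene with the highest level, the gene with the most positive change in Ku cells and a gene called lower in all 4 comparisons. They are the 250 bases upstream of the RefSeq start on GRCh38.p14, with ATTTGCAT (the octamer read by POU2F1), TATAAA and CCAAT in capitals on either strand.
HIST1H2BK, chr6:27146856-27147105, minus strand: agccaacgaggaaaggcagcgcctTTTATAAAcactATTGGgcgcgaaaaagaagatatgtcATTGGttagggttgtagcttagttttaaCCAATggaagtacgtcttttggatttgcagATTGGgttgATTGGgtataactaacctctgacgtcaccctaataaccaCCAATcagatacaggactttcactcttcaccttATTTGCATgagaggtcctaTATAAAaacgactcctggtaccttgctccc
HIST1H2BG, chr6:26216689-26216938, minus strand: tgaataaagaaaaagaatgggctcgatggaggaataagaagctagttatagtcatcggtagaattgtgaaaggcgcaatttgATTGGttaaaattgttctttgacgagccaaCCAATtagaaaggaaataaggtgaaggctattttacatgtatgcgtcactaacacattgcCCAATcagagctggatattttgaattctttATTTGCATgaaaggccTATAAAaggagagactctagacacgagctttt
HIST2H4B, chr1:149861160-149861409, minus strand: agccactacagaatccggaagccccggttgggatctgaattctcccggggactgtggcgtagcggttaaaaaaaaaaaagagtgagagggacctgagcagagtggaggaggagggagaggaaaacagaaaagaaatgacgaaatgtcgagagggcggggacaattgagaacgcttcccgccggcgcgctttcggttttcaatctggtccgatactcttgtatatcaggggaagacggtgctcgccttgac
In HIST1H2BK and HIST1H2BG the octamer and TATAAA lie close together near the start, and in HIST2H4B none of the 3 motifs was found. RefSeq gave 68 promoters for 64 of the members. ATTTGCAT was in 75.0% of 20 H2B promoters, 68.8% of 16 H2A promoters, 7.69% of 13 H3 promoters and 0 of the H1 and H4 promoters, against 1.63% of all 35116 promoters. TATAAA was in 66.2% of the members' promoters, against 10.7%, and CCAAT in 85.3%, against 32.0%, although in 23.1% of 13 H4 promoters. In 12 pairs of members found in the GRCh37 annotation, such as HIST1H2BC and HIST1H2AC with 218 bases between them, genes are read away from a shared stretch, so that their promoters are not independent. HIST1H2BG and HIST1H2BF, which that annotation lacks, have RefSeq promoters that overlap those of HIST1H2AE and HIST1H2AD. Some promoters were counted more than once, among them those of HIST1H2BK and HIST1H2BD, and the H3 promoter with ATTTGCAT, of HIST1H3D, is the same stretch as that of HIST1H2AD.

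Genes that drive, process and turn over histone RNA were read against all active genes, of which 68.6% (Ku) and 84% (Cov) were called lower at 250 nM and 11.3% and 70.5% at 50 nM. Of 10 genes for the transcription of histone genes, 10 were called lower at 250 nM in both lines, with medians of -2.14 and -2.32 beside -1.11 and -1.31 for all active genes, and 1 (10%) and 8 (80%) at 50 nM. NPAT, the coactivator that gathers at histone clusters in S phase, went from 11.2 ± 1.01 (SD, n = 2) to 1.15 ± 0.217 FPKM in Ku cells and from 11.5 ± 0.733 to 1.04 ± 0.115 in Cov cells at 250 nM (log2 fold changes -2.50 and -2.62, limma adjusted p = 2.88e-05 and 1.59e-06). CCNE1, the cyclin E1 whose kinase activates NPAT, fell from 39.9 ± 2.39 to 2.77 ± 0.196 and from 56.2 ± 1.94 to 5.72 ± 0.0575. POU2F1, which reads the octamer, fell from 6.43 ± 0.646 to 1.76 ± 0.225 and from 4.9 ± 0.396 to 0.891 ± 0.112.

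For the processing of the stem-loop end, 13 of 16 genes (81.2%, beside 68.6% of all active genes) were called lower in Ku cells at 250 nM and 16 of 16 (beside 84%) in Cov cells. At 50 nM 4 (25%, beside 11.3%) and 11 (68.8%, beside 70.5%) were. SLBP, the stem-loop binding protein, was at 69.8 and 65.5 FPKM in Ku DMSO, 67.3 and 57.2 at 50 nM and 15.3 and 13.6 at 250 nM, and at 136 and 151, 71.8 and 91.7, and 22.5 and 23.8 in Cov cells. Only at 250 nM was it called in Ku cells (-2.16 ± 0.104, limma adjusted p = 1.24e-05), and at both doses in Cov cells (-0.81 ± 0.127 and -2.58 ± 0.127, 0.000637 and 1.55e-06). LSM10, a subunit of the U7 particle, and CPSF2, a partner of the nuclease CPSF3, were called lower at both doses in both lines. In Ku cells at 50 nM most lower calls over all active genes were lost in fits that left out 1 library. Such fits are not given for the genes of these lists. The 3 genes of this list that were not called in Ku cells at 250 nM were NCBP1, a subunit of the cap-binding complex, and SNRPE and SNRPF, shared Sm proteins, at -0.81, -0.67 and -0.70.

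For the translation and decay of histone RNA, 8 of 9 genes (88.9%, beside 68.6%) were called lower in Ku cells and 9 of 9 (beside 84%) in Cov cells at 250 nM, and 0 (beside 11.3%) and 6 (66.7%, beside 70.5%) at 50 nM. At 50 nM in Ku cells 7 of the 9 had an unadjusted limma p under 0.05, as did 62.5% of all active genes. UPF1, a helicase used in the decay of histone RNA at the end of S phase, went from 42.9 ± 1.62 to 10.5 ± 0.433 FPKM in Ku cells and from 73.3 ± 4.39 to 18.2 ± 2.22 in Cov cells. MIF4GD, which links SLBP to translation, was the gene that was not called in Ku cells (-0.80, limma adjusted p = 0.00268). Histone chaperones, which carry and deposit histones, were called lower in 18 of 20 genes (90%, beside 68.6%) and in 20 of 20 (beside 84%) at 250 nM, and in 2 (10%, beside 11.3%) and 18 (90%, beside 70.5%) at 50 nM. HJURP, the chaperone of CENPA, fell the most of them, from 56.3 ± 2.22 to 1.79 ± 0.0857 and from 93.0 ± 2.84 to 2.79 ± 0.288, while NAP1L1 and ATRX were not called in Ku cells.

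Replication-independent histones, whose genes make ordinary polyadenylated RNA, are the closest comparison. In this set 9 of 12 genes (75%, beside 68.6%) were called lower in Ku cells at 250 nM and 10 of 12 (83.3%, beside 84%) in Cov cells, with medians of -1.25 and -1.44, close to the -1.11 and -1.31 of all active genes. At 50 nM 3 (25%, beside 11.3%) and 7 (58.3%, beside 70.5%) were. H2AFZ, the gene of H2A.Z, went from 774 ± 32.9 to 312 ± 20.7 FPKM and from 827 ± 83.1 to 352 ± 0.112, and H1F0, a linker histone of cells that leave the cycle, from 115 ± 8.1 to 24.4 ± 1.51 and from 148 ± 18.4 to 41.4 ± 0.721. The 12 genes and the 42 members were not compared by a test. H3F3A was called higher in Ku cells, at 0.164 and 0.155 FPKM in DMSO and 6.47 and 10.3 at 250 nM, while its 2 Cov DMSO libraries were at 0.117 and 16.7. The cause of these values was not tested.

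Markers of ovarian carcinoma cells included PAX8 and SOX17, at 136 ± 5.5 and 143 ± 4.86 FPKM in Ku DMSO and 124 ± 5.33 and 117 ± 5.66 in Cov DMSO. All 10 were active in at least 1 library of the 12, but WT1 was below 1 FPKM in Cov DMSO (0.653 ± 0.125) and MUC16 in Ku DMSO (0.166 ± 0.00944). Of 8 markers of blood, endothelial and fibroblast cells 4 were active, CD68, CDH5, COL1A1 and COL3A1, with DMSO means from 0.663 to 8.58 FPKM, and PTPRC, CD3E, PECAM1 and DCN were not. The part of such cells in the histone results was not tested.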

How the data were processed

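RNA from 12 libraries (2 lines, 3 treatments, 2 libraries each) was enriched for poly(A) RNA and sequenced as single-end reads of 75 bases. Per the paper's methods and the labels, the authors aligned reads to hg19 with HISAT and made FPKM values with Cufflinks and Cuffnorm, normalized to ERCC spike-in RNAs added per cell count, and deposited 1 FPKM table per line. Tool versions and the gene annotation were not given in the sources used here. The tables hold no read counts, so the depth behind a value is unknown and no counting interval is given. A fall in RNA per cell and an error in the amount of spike-in added change such values alike.

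From these, log2(FPKM + 1) was computed for the 14251 genes above 1 FPKM in at least 1 of 12 libraries, without spike-in rows. Each line was fitted on its own 6 libraries with limma 3.58.1 in R 4.3.3 (moderated variance with a mean trend), 50 nM and 250 nM were each compared with DMSO, and p-values were adjusted by Benjamini-Hochberg. Calls needed adjusted p-values below 0.001 with log2 changes larger than 0.5. The lines were not compared by a test, because their tables were normalized separately.

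Genes named by rule were the 25 active members with the highest mean over 12 libraries, members called higher, the 3 with the most negative and the 3 with the most positive change in each line at 250 nM, genes of the lists for transcription, processing, decay, chaperones and replication-independent histones, and cell markers. Other members, such as HIST2H3A, HIST1H2BL, HIST1H3D and HIST1H4D, were named after their values were seen. Members and lists were chosen with earlier results of these data known. Alternatives covered pseudocount, minimum FPKM, scaling, variance trend, threshold, groups fitted, replicate block, near-identical copies and each library left out. Stem-loops were read from GRCh37 with the GENCODE annotation lifted to it, and promoters from RefSeq on GRCh38.p14. Figures were drawn with matplotlib 3.10.9.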

Additional observations from a re-analysis of the deposited data

Results flagged for a closer look

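Some members had log2 fold changes of opposite sign in the lines, with both treated libraries above both DMSO libraries in one line and below both in the other. The difference between the lines was not tested, since the tables were normalized separately. At 50 nM the log2 fold changes in Ku and Cov cells were 0.16 and -0.55 for HIST1H2AC, 0.70 and -0.78 for HIST1H2BE, 0.14 and -0.56 for HIST1H2BK, 0.81 and -0.88 for HIST1H2BN, 0.40 and -0.44 for HIST1H3D, -0.02 and 0.31 for HIST1H4D and 0.19 and -0.22 for HIST2H2AC. At 250 nM they were 0.28 and -0.47 for HIST1H2BL, 0.56 and -0.35 for HIST1H3H and -0.05 and 0.34 for HIST1H4D. Of these, HIST1H2BK in Cov cells at 50 nM was the only change called by limma. HIST1H3D and HIST1H2BL passed 1 FPKM in Cov DMSO libraries alone and HIST1H4D in a treated Cov library alone. In Ku cells HIST1H3D was below 1 FPKM in every library, as was HIST1H2BL, which was at 0.132 and 0.129 FPKM in DMSO beside a shared low value of 0.118 and 0.119, so their positive values there rest on very low readings. In Ku cells HIST1H4D was at the shared low value in all 6 libraries, so its negative values there are the difference of that low value between libraries and say nothing of the gene.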

How the results depend on the processing

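Library scaling turned the direction of most named members at 250 nM, and other settings moved the number of calls. In order of Ku 50 nM, Ku 250 nM, Cov 50 nM and Cov 250 nM, 5, 10, 6 and 9 members were called lower and 0, 1, 0 and 0 higher. Lower calls numbered 0, 0, 0 and 0 with equal median scaling and 0, 1, 0 and 0 with median-of-ratios scaling, and higher calls 0, 11, 0 and 16, and 0, 6, 0 and 6. They numbered 7, 17, 16 and 19 lower and 5, 2, 0 and 3 higher at an adjusted p under 0.05 (of all active genes 40.2%, 81.3%, 82% and 88.3% lower and 0.618%, 0.133%, 0.225% and 0.182% higher). With a minimum of 10 FPKM they numbered 2, 6, 5 and 10 lower and 0 higher in all 4. Only 17 members passed that minimum, and HIST1H4C did not, so its higher call could not appear there. With no minimum 0, 7, 4 and 6 were lower. With only the 2 groups compared in the fit 0, 9, 5 and 15 were lower and 0, 1, 0 and 1 higher. Without the near-identical copies 2, 5, 4 and 7 were lower. Over all genes tested, lower calls numbered 1607, 9774, 10042 and 11971, and 1453, 7740, 7539 and 8819 with a minimum of 10 FPKM, 3, 8145, 8286 and 11287 with no minimum and 9, 9197, 9787 and 12352 with only the 2 groups compared, so that the counts of 0 in Ku cells at 50 nM go with the loss of nearly all calls. Of all active genes at 250 nM, equal median scaling called 1654 lower and 3831 higher in Ku cells and 1611 and 3764 in Cov cells, against 9774 and 7 and 11971 and 15 on the spike-in scale. The pseudocount of 0.1 and the fit with no variance trend kept every count of lower calls within 1.5 times. Read depth is unknown, so which low members were measured reliably could not be set from counts.

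With the replicate number as a block, 1, 8, 4 and 5 members were called lower and 0, 1, 0 and 0 higher, beside 989, 9485, 7266 and 11202 lower over all active genes. The numbers did not pair the samples, since deviations of same-numbered libraries correlated at -0.0703 to 0.0282. With each library left out in turn, the members' lower calls in Ku cells at 50 nM were lost, and the other counts moved too. Fits without a library of a compared group rest on 1 library there, so their counts of higher calls are not given. The log2 fold change of HIST1H4C in Ku cells at 250 nM stayed between 1.38 and 1.47. Over all active genes, lower calls in Ku cells at 50 nM went from 1607 to between 6 and 131 in these fits, so the loss there was not particular to the members.

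Among 29 named members, the direction turned under scaling as listed here. These scalings move every gene of a library by the same factor. Under equal medians the median of all active genes at 250 nM went from -1.11 to 0.28 (Ku) and from -1.31 to 0.31 (Cov). Under median-of-ratios scaling it went to -0.001 and 0.011. Whether members turned more often than other genes was not tested. HIST1H2BH was at the shared low value in all 6 Cov libraries, and its Cov values below are moves of that low value alone. With equal median scaling the log2 fold changes that turned in Cov cells at 50 nM were 0.65 for HIST1H2BK, 0.64 for HIST2H2AA4, 0.63 for HIST2H2AA3, 0.68 for HIST1H1C, 0.62 for HIST1H2AC, 0.94 for HIST2H2AC, 0.16 for HIST1H2BD, 0.11 for HIST2H4B, 0.12 for HIST2H4A, 0.56 for HIST1H2BC, 0.93 for HIST1H4J, 0.56 for HIST1H2BJ, 0.57 for HIST1H2BO, 0.96 for HIST1H4K, 0.79 for HIST2H2BE, 0.25 for HIST1H2BE, 0.77 for HIST2H2BF, 0.64 for HIST3H2A, 0.07 for HIST1H2BH, 0.64 for HIST2H2BA, 0.30 for HIST1H2AE, 0.18 for HIST1H3E and 0.47 for HIST1H3H. With equal median scaling the log2 fold changes that turned in Cov cells at 250 nM were 1.03 for HIST1H2BK, 1.52 for HIST2H2AA4, 1.52 for HIST2H2AA3, 1.31 for HIST1H1C, 1.10 for HIST1H2AC, 1.68 for HIST2H2AC, 1.25 for HIST1H2BD, 0.52 for HIST2H4B, 0.52 for HIST2H4A, 1.02 for HIST1H4H, 0.60 for HIST1H2BC, 1.51 for HIST1H4J, 0.94 for HIST1H2BJ, 0.80 for HIST1H2BO, 1.66 for HIST1H4K, 1.26 for HIST2H2BE, 1.03 for HIST1H2BE, 0.92 for HIST2H2BC, 1.30 for HIST2H2BF, 0.69 for HIST3H2A, 0.19 for HIST1H2BH, 1.40 for HIST2H2BA, 0.91 for HIST1H2BN, 1.11 for HIST1H2AE, 0.19 for HIST1H3E and 1.16 for HIST1H3H. With equal median scaling the log2 fold changes that turned in Ku cells at 50 nM were 0.39 for HIST1H2BD, 0.16 for HIST1H4H, 0.47 for HIST1H2BO, 0.14 for HIST3H2A, 0.10 for HIST1H2BH and 0.30 for HIST2H2BA. With equal median scaling the log2 fold changes that turned in Ku cells at 250 nM were 1.68 for HIST1H2BK, 1.27 for HIST2H2AA4, 1.27 for HIST2H2AA3, 1.72 for HIST1H1C, 1.03 for HIST1H2AC, 1.26 for HIST2H2AC, 0.96 for HIST1H2BD, 0.55 for HIST2H4B, 0.55 for HIST2H4A, 1.13 for HIST1H4H, 1.23 for HIST1H2BC, 1.08 for HIST1H4J, 0.50 for HIST1H2BJ, 0.92 for HIST1H2BO, 1.14 for HIST1H4K, 1.15 for HIST2H2BE, 0.93 for HIST1H2BE, 0.15 for HIST2H2BF, 0.92 for HIST3H2A, 1.29 for HIST1H2BH and 0.14 for HIST2H2BA. With median-of-ratios scaling the log2 fold changes that turned in Cov cells at 50 nM were 0.46 for HIST1H2BK, 0.45 for HIST2H2AA4, 0.45 for HIST2H2AA3, 0.49 for HIST1H1C, 0.44 for HIST1H2AC, 0.76 for HIST2H2AC, 0.39 for HIST1H2BC, 0.77 for HIST1H4J, 0.39 for HIST1H2BJ, 0.41 for HIST1H2BO, 0.80 for HIST1H4K, 0.63 for HIST2H2BE, 0.10 for HIST1H2BE, 0.63 for HIST2H2BF, 0.48 for HIST3H2A, 0.06 for HIST1H2BH, 0.52 for HIST2H2BA, 0.16 for HIST1H2AE, 0.08 for HIST1H3E and 0.35 for HIST1H3H. With median-of-ratios scaling the log2 fold changes that turned in Cov cells at 250 nM were 0.57 for HIST1H2BK, 1.07 for HIST2H2AA4, 1.06 for HIST2H2AA3, 0.86 for HIST1H1C, 0.66 for HIST1H2AC, 1.25 for HIST2H2AC, 0.80 for HIST1H2BD, 0.09 for HIST2H4B, 0.09 for HIST2H4A, 0.59 for HIST1H4H, 0.19 for HIST1H2BC, 1.10 for HIST1H4J, 0.52 for HIST1H2BJ, 0.39 for HIST1H2BO, 1.25 for HIST1H4K, 0.86 for HIST2H2BE, 0.63 for HIST1H2BE, 0.53 for HIST2H2BC, 0.93 for HIST2H2BF, 0.31 for HIST3H2A, 0.14 for HIST1H2BH, 1.07 for HIST2H2BA, 0.58 for HIST1H2BN, 0.75 for HIST1H2AE and 0.83 for HIST1H3H. With median-of-ratios scaling the log2 fold changes that turned in Ku cells at 50 nM were 0.26 for HIST1H2BD, 0.04 for HIST1H4H, 0.35 for HIST1H2BO, 0.07 for HIST3H2A and 0.21 for HIST2H2BA. With median-of-ratios scaling the log2 fold changes that turned in Ku cells at 250 nM were 1.16 for HIST1H2BK, 0.76 for HIST2H2AA4, 0.76 for HIST2H2AA3, 1.22 for HIST1H1C, 0.54 for HIST1H2AC, 0.77 for HIST2H2AC, 0.47 for HIST1H2BD, 0.07 for HIST2H4B, 0.07 for HIST2H4A, 0.67 for HIST1H4H, 0.77 for HIST1H2BC, 0.64 for HIST1H4J, 0.09 for HIST1H2BJ, 0.48 for HIST1H2BO, 0.71 for HIST1H4K, 0.76 for HIST2H2BE, 0.54 for HIST1H2BE, 0.61 for HIST3H2A and 0.81 for HIST1H2BH.

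With a library left out, these log2 fold changes turned in at least 1 fit, with ranges of -0.05 to 0.13 for HIST2H2AA4 (Ku 50 nM), -0.04 to 0.13 for HIST2H2AA3 (Ku 50 nM), -0.08 to 0.14 for HIST1H4J (Ku 50 nM), -0.16 to 0.67 for HIST1H2BJ (Ku 50 nM), -0.42 to 0.19 for HIST1H2BO (Ku 50 nM), -0.06 to 0.23 for HIST2H2BE (Ku 50 nM), -0.50 to 0.02 for HIST3H2A (Ku 50 nM), -0.40 to 0.10 for HIST2H2BA (Ku 50 nM), -0.52 to 0.06 for HIST3H2A (Ku 250 nM), -0.04 to 0.48 for HIST1H2BN (Ku 250 nM), -0.13 to 0.34 for HIST1H2AE (Ku 250 nM), -0.15 to 0.23 for HIST1H3B (Ku 250 nM), -0.32 to 0.02 for HIST1H4J (Cov 50 nM), -0.24 to 0.02 for HIST1H4K (Cov 50 nM), -0.38 to 0.65 for HIST1H2BG (Cov 50 nM), -0.56 to 0.16 for HIST2H2BF (Cov 50 nM), -0.74 to 0.36 for HIST2H2BA (Cov 50 nM), -0.52 to 1.45 for HIST1H4C (Cov 50 nM), -0.85 to 0.08 for HIST1H3H (Cov 50 nM) and -0.66 to 0.44 for HIST2H2BA (Cov 250 nM).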
